A study of Mus musculus with 10 samples.

Results

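Transcript levels of 9 interferon-stimulated genes were compared in the hippocampus between Tshr-/- mice, which lack the receptor for thyroid-stimulating hormone, and wild-type mice. The genes are Irf7, Irf9, Stat2, Ifit1, Ifit3, Ifitm3, Bst2, Lgals3bp and Ifi27. They were taken by name from the authors' table of 52636 genes, in which each has 1 entry. All mice were C57BL/6 at an age of 3 months, with 5 biological replicates of Tshr-/- and 5 of wild type, 1 library each, and the study asked about spatial learning and memory. The labels name no other allele and no agent. The sources used here do not say which part of Tshr was removed, whether a library is 1 mouse, or whether littermates were used and thyroid hormone was given. P-values weigh a difference between the genotypes against the spread between these libraries.

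Interferons are secreted proteins that cells release after sensing foreign or misplaced nucleic acid. Type I interferons bind the receptor chains Ifnar1 and Ifnar2, whose kinases Tyk2 and Jak1 activate Stat2, which joins Irf9 in a complex that enters the nucleus. The complex binds the interferon-stimulated response element and raises the transcription of antiviral genes, among them Ifit1, Ifit3, Ifitm3 and Bst2. In the brain, microglia, endothelial cells, border macrophages and cells of the choroid plexus and meninges respond to interferon, as neurons and astrocytes can.

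The promoters of the genes were read for the core letters of this element, GAAA, then any 2 bases, then GAAA, on both strands of a window from 250 bases before to 50 after the RefSeq transcription start (GRCm38.p6). Of the 8 genes found in the RefSeq promoter table, which are all but Ifi27, 5 held the letters, against 3.99% of all 27025 genes there and 3.44% of all 32851 windows. The stretches around the matches are shown because this element is what the complex of Stat2 and Irf9 reads, and capitals mark the matching letters. Each is written in the direction of transcription of its gene, so that a match on the other strand reads TTTC, any 2 bases, TTTC.
Ifit1: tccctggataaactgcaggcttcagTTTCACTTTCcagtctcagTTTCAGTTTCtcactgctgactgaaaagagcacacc
Ifit3: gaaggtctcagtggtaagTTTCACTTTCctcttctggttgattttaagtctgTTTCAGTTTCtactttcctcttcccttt
Stat2: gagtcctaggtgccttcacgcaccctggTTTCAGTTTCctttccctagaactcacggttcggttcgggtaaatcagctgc
Bst2: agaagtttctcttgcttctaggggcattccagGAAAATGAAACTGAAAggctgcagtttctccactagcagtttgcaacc
Ifitm3: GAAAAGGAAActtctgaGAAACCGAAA

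The Ifit1 stretch is chr19:34640760-34640839 on the plus strand, and its matches begin 104 and 85 bases before the start. The Ifit3 stretch is chr19:34583355-34583434 on the plus strand, with matches 156 and 122 bases before the start. Both genes have TTTCACTTTC farther from the start and TTTCAGTTTC nearer to it. Stat2 had 1 match, 222 bases before the start, in chr10:128270248-128270327 on the plus strand. Bst2 had 2 matches that overlap by their GAAA, 130 and 124 bases before the start, in chr8:71537555-71537634 on the minus strand. In Ifitm3 the 2 matches lay 2 and 19 bases after the start, in chr7:141010716-141010742 on the minus strand. Irf7, Irf9 and Lgals3bp had no match in their windows, which says only that these letters are not there. A match is a description of the sequence and not a bound site.

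The table gave back 25744854 to 28332278 reads per library for Tshr-/- and 23899650 to 33529811 for wild type. Tshr itself was near the detection limit, with 0, 0, 0, 5 and 2 reads in Tshr-/- libraries 1 to 5, against 9, 12, 7, 2 and 2 reads in wild-type libraries 1 to 5 (2-sided exact permutation test of mean FPKM, p = 0.0556). The Tshr reads of Tshr-/- thus lay in libraries 4 and 5, and library 4 had more than wild-type libraries 4 and 5. Since the deleted part is not stated and the counts are this low, Tshr does not check the labels of single libraries. Of 10 hippocampal neuron markers, all were measured, and their summed level was 203 to 302 FPKM in Tshr-/- and 295 to 397 FPKM in wild type. All 10 were lower in Tshr-/-, 7 of them with an unadjusted limma p below 0.05, beside 8.38% of all genes tested that were lower at this level. The sum was lowest in Tshr-/- libraries 1 and 2, at 203 and 204 FPKM, and was 292 FPKM in Tshr-/- library 4. FPKM, the unit of the table, is a fragment number divided by gene length and by a library's size. Tshr-/- library 4 stood apart in the choroid plexus marker Ttr, with 2189 FPKM against 2.77 to 54.2 FPKM in the other Tshr-/- libraries and 0.830 to 84.1 FPKM in wild type. The differences of the 9 genes are therefore given with and without that library. Whole tissue was sequenced, so fewer or more cells of a type and less or more RNA per cell cannot be told apart.

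None of the 9 genes passed the test over all genes at an adjusted p below 0.05, although all had a difference above 0. All 9 passed the filter for a mean of at least 0.5 FPKM over the 10 libraries. Irf7 passed it only through Tshr-/-, since its wild-type mean was 0.457 FPKM. The measure was the log2 difference (Tshr-/- minus wild type, on log2(FPKM + 0.1)), which ran down to 0.00091 for Stat2. The differences of Stat2 and Ifi27 were negative without Tshr-/- library 4. Of all 15471 genes tested, 46.7% had a positive difference. The median over the 9 genes was 0.43, against -0.010 over all genes tested, and these counts describe genes chosen by name and are no test. Without Tshr-/- library 4, 7 of 9 were positive, beside 46.4% of all genes, and the medians were 0.19 and -0.013. With limma, 0 of 9 had an adjusted p below 0.05, as did 0.0129% of all genes tested, and the lowest of the 9 was 0.243. Limma called 0 of 9 without Tshr-/- library 4 as well (0.013% of all genes), and limma voom on the rebuilt reads also called 0 of 9 (0.0388% of all genes). An unadjusted limma p below 0.05 was reached by 4 of the 9, Ifit3, Ifit1, Lgals3bp and Irf7, all higher in Tshr-/-, beside 4.65% of all genes tested that were higher and 8.38% that were lower at this level. Leaving out Tshr-/- library 4 gave 3 of 9, with Irf7 lost, beside 5.13% of genes higher. Leaving out Tshr-/- library 5 or wild-type library 4 gave 2 of 9, with Irf7 and Lgals3bp lost. The share of all genes at this level was not counted in those fits.

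**Figure D1:**
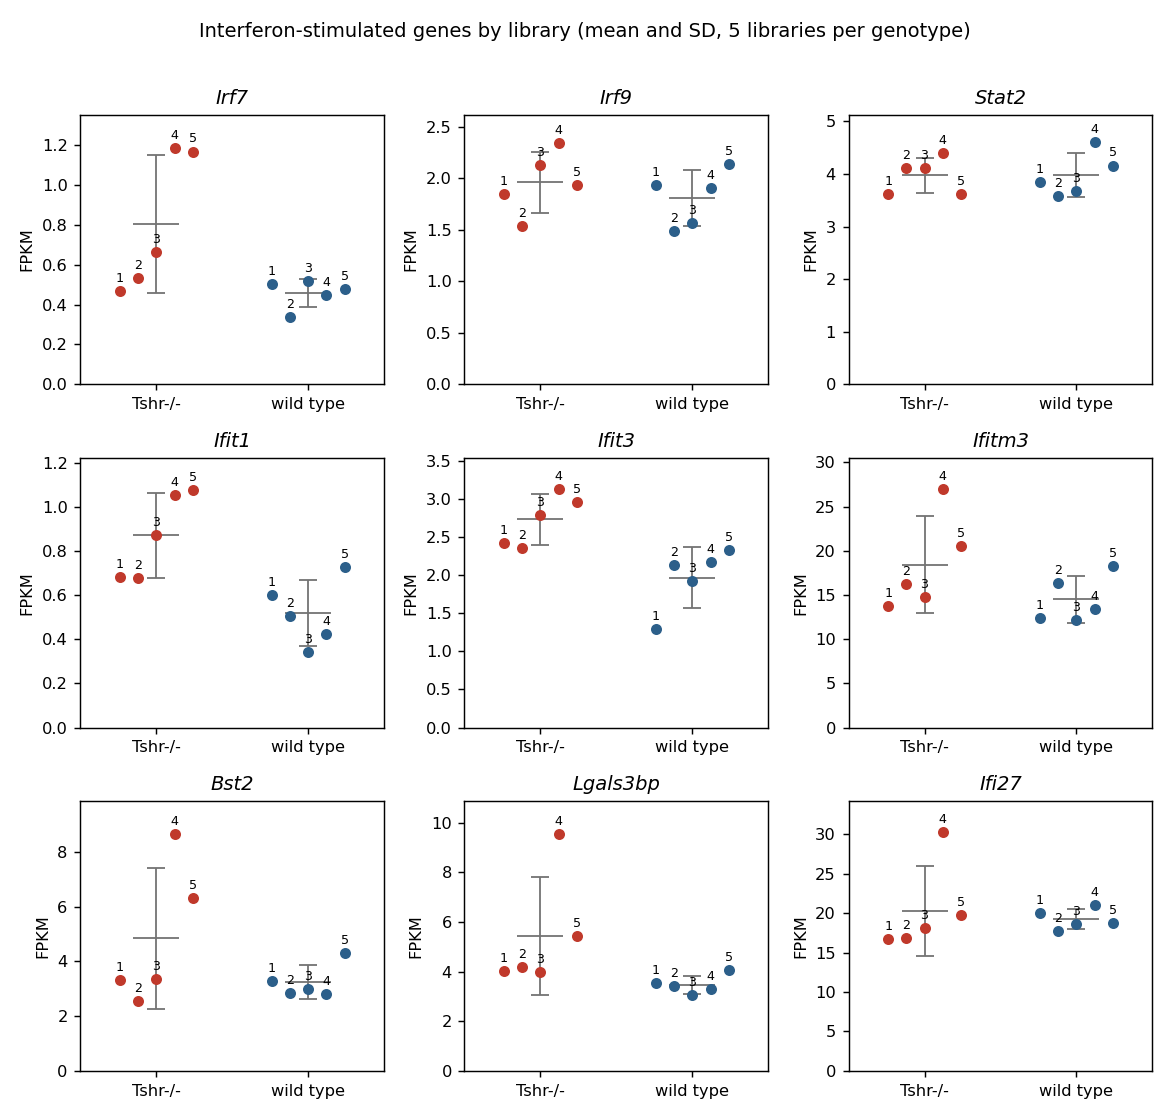
FPKM of each gene (vertical axis, from 0) in the Tshr-/- and the wild-type libraries, with library numbers beside the points, the mean as a bar and the SD as whiskers. Tshr-/- library 4 is the highest point for 7 of the 9 genes, and Ifit3 is the one gene whose genotypes do not overlap.

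Irf7 (ENSMUSG00000025498, chromosome 7, 141262706 to 141266481, minus strand, mm10) is a regulator of the pathway and encodes a transcription factor that interferon induces and that in turn drives interferon genes. It had 0.469, 0.531, 0.664, 1.19 and 1.17 FPKM in Tshr-/- libraries 1 to 5, against 0.501, 0.339, 0.519, 0.448 and 0.479 FPKM in wild-type libraries 1 to 5. Tshr-/- libraries 4 and 5 stood far above all wild-type libraries, libraries 2 and 3 lay above them by less, and library 1 lay among them. The means were 0.804 ± 0.348 FPKM in Tshr-/- and 0.457 ± 0.0714 FPKM in wild type (SD, n = 5 each), from 42 to 122 reads per library. The log2 difference was 0.62 ± 0.26 (SE), with an unadjusted limma p of 0.037 and an adjusted p of 0.353. It was 0.47 ± 0.26 without Tshr-/- library 4, with a limma adjusted p of 0.455.

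Irf9 and Stat2, partners in the complex that binds the response element, had differences smaller than their SE. Irf9 (ENSMUSG00000002325, chromosome 14, 55603571 to 55610030, plus strand) had 1.85, 1.54, 2.13, 2.34 and 1.94 FPKM in Tshr-/- libraries 1 to 5, against 1.93, 1.49, 1.57, 1.91 and 2.14 FPKM in wild-type libraries 1 to 5. The genotypes overlapped, and only Tshr-/- library 4 lay above all wild-type libraries. Its log2 difference was 0.11 ± 0.13 (SE, limma adjusted p = 0.758), and 0.045 ± 0.13 (SE, limma adjusted p = 0.914) without Tshr-/- library 4.

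Stat2 (ENSMUSG00000040033, chromosome 10, 128270559 to 128292849, plus strand) had 3.62, 4.11, 4.12, 4.39 and 3.62 FPKM in Tshr-/- libraries 1 to 5, against 3.84, 3.58, 3.68, 4.61 and 4.16 FPKM in wild-type libraries 1 to 5. No Tshr-/- library lay above the highest wild-type library. The means were 3.97 ± 0.340 FPKM in Tshr-/- and 3.97 ± 0.418 FPKM in wild type (SD, n = 5 each), with a log2 difference of 0.00091 ± 0.084 (SE) and a limma adjusted p of 0.997. It was -0.036 ± 0.087 (SE, limma adjusted p = 0.899) without Tshr-/- library 4. Stat2 had the smallest SE of the 9 genes and 501 to 717 reads per library.

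The IFIT genes, a family in which some proteins bind foreign RNA and hold back its translation, had the smallest p of the 9. Ifit3 (ENSMUSG00000074896, chromosome 19, 34583531 to 34588731, plus strand) encodes a family member that in humans stabilises IFIT1. It had 2.42, 2.35, 2.79, 3.12 and 2.96 FPKM in Tshr-/- libraries 1 to 5, against 1.29, 2.13, 1.92, 2.17 and 2.32 FPKM in wild-type libraries 1 to 5. Each Tshr-/- library lay above each wild-type library, as for 0.911% of all genes tested, beside 1.76% in which each lay below. The lowest Tshr-/- library, at 2.35 FPKM, was close to the highest wild-type library, at 2.32 FPKM. The means were 2.73 ± 0.334 FPKM in Tshr-/- and 1.97 ± 0.405 FPKM in wild type (SD, n = 5 each). The log2 difference was 0.47 ± 0.15 (SE), with an unadjusted limma p of 0.00931 and an adjusted p of 0.243. The exact permutation p was 0.00794, the smallest that 5 against 5 libraries can give. The log2 difference was 0.42 ± 0.16 (SE, limma adjusted p = 0.298) without Tshr-/- library 4, so it was nearly as large.

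Ifit3 shares sequence with a near copy, and its read number is uncertain for that reason. Of the 50-base stretches of its longest GENCODE vM21 transcript, 51.2% also occur in Ifit3b. Ifit3b had 1.14 ± 0.262 FPKM in Tshr-/- and 0.940 ± 0.260 FPKM in wild type (SD, n = 5 each), with a log2 difference of 0.27 and a limma adjusted p of 0.619. That difference was 0.12 without wild-type library 4. Summed over both genes, a step chosen after their values were seen, the level was 3.87 ± 0.499 FPKM in Tshr-/- and 2.91 ± 0.529 FPKM in wild type. The log2 difference of the sum was 0.41 (exact permutation p = 0.0159), and 4 of 5 Tshr-/- libraries lay above all wild-type libraries.

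Ifit1 (ENSMUSG00000034459, chromosome 19, 34640871 to 34650009, plus strand) lies 52.1 kb from Ifit3 and encodes a protein that binds foreign RNA at its capped end. It had 0.680, 0.678, 0.873, 1.05 and 1.07 FPKM in Tshr-/- libraries 1 to 5, against 0.602, 0.504, 0.345, 0.425 and 0.726 FPKM in wild-type libraries 1 to 5. Wild-type library 5 lay above Tshr-/- libraries 1 and 2, and the other wild-type libraries lay below all of Tshr-/-. The means were 0.872 ± 0.193 FPKM in Tshr-/- and 0.520 ± 0.149 FPKM in wild type (SD, n = 5 each), from 21 to 79 reads per library. Its log2 difference was 0.66 ± 0.21 (SE), with an unadjusted limma p of 0.00998 and an adjusted p of 0.249. It was 0.59 ± 0.23 (SE, limma adjusted p = 0.308) without Tshr-/- library 4. For Ifit1, 7.13% of the 50-base stretches also occur in other genes, nearly all of them in Ifit1bl2.

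Ifitm3 and Bst2 encode membrane proteins that act on enveloped viruses, Ifitm3 at entry and Bst2, also called tetherin, at release. Ifitm3 (ENSMUSG00000025492, chromosome 7, 141009586 to 141010770, minus strand) had 13.7, 16.2, 14.7, 27.0 and 20.6 FPKM in Tshr-/- libraries 1 to 5, against 12.4, 16.3, 12.2, 13.4 and 18.2 FPKM in wild-type libraries 1 to 5. Tshr-/- libraries 4 and 5 lay above all wild-type libraries, and libraries 1 to 3 lay within their range. The means were 18.4 ± 5.44 FPKM in Tshr-/- and 14.5 ± 2.65 FPKM in wild type (SD, n = 5 each), with a log2 difference of 0.32 ± 0.18 (SE) and a limma adjusted p of 0.491. The difference was 0.17 ± 0.15 (SE, limma adjusted p = 0.665) without Tshr-/- library 4. Of its 50-base stretches, 4.61% also occur in Gm7676, and others in further genes.

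Bst2 (ENSMUSG00000046718, chromosome 8, 71534255 to 71537456, minus strand) had 3.32, 2.56, 3.37, 8.64 and 6.32 FPKM in Tshr-/- libraries 1 to 5, against 3.29, 2.83, 2.99, 2.81 and 4.31 FPKM in wild-type libraries 1 to 5. Again libraries 4 and 5 of Tshr-/- stood above all wild-type libraries, while Tshr-/- library 2 was the lowest of all 10. The log2 difference was 0.43 ± 0.29 (SE, limma adjusted p = 0.554), and 0.19 ± 0.23 (SE, limma adjusted p = 0.759) without Tshr-/- library 4.

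Lgals3bp (ENSMUSG00000033880, chromosome 11, 118392751 to 118402092, minus strand) encodes a secreted glycoprotein that binds galectins. It had 4.03, 4.18, 3.99, 9.56 and 5.43 FPKM in Tshr-/- libraries 1 to 5, against 3.55, 3.41, 3.08, 3.28 and 4.05 FPKM in wild-type libraries 1 to 5. Wild-type library 5 reached the level of Tshr-/- libraries 1 and 3, and the other wild-type libraries lay below all of Tshr-/-. The means were 5.44 ± 2.38 FPKM in Tshr-/- and 3.47 ± 0.366 FPKM in wild type (SD, n = 5 each). The log2 difference was 0.55 ± 0.21 (SE), with an unadjusted limma p of 0.0264 and an adjusted p of 0.324. The mean of Tshr-/- was 4.41 ± 0.686 FPKM (SD, n = 4) without library 4, with a log2 difference of 0.33 ± 0.11 (SE) and a limma adjusted p of 0.251, so both the difference and its error were smaller without it.

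Ifi27 (ENSMUSG00000064215, chromosome 12, 103434211 to 103440239, plus strand), an interferon alpha-inducible gene, was the most abundant of the 9 per length. It had 16.7, 16.9, 18.1, 30.3 and 19.7 FPKM in Tshr-/- libraries 1 to 5, against 20.0, 17.8, 18.7, 21.0 and 18.8 FPKM in wild-type libraries 1 to 5. Library 4 was high in Tshr-/-, libraries 1 and 2 lay below all wild-type libraries, and libraries 3 and 5 lay among them. The log2 difference was 0.042 ± 0.15 (SE, limma adjusted p = 0.928), and it turned to -0.11 ± 0.069 (SE, limma adjusted p = 0.515) without Tshr-/- library 4. Ifi27 lies 11.9 Mb from Tshr on the same chromosome.

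In order of mean FPKM over all libraries, Ifi27 (19.8) and Ifitm3 (16.5) stood far above Lgals3bp (4.46), Bst2 (4.04) and Stat2 (3.97), then Ifit3 (2.35), Irf9 (1.88), Ifit1 (0.696) and Irf7 (0.630). Library values overlapped between Ifi27 and Ifitm3, among Lgals3bp, Bst2 and Stat2, between Ifit3 and Irf9, and between Ifit1 and Irf7. They did not overlap between Ifitm3 (12.2 FPKM at the lowest) and Lgals3bp (9.56 FPKM at the highest), Stat2 and Ifit3, or Irf9 and Ifit1. Bst2 and Lgals3bp, at 2.56 and 3.08 FPKM at the lowest, did overlap with Ifit3, at 3.12 FPKM at the highest.

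**Figure D2:**
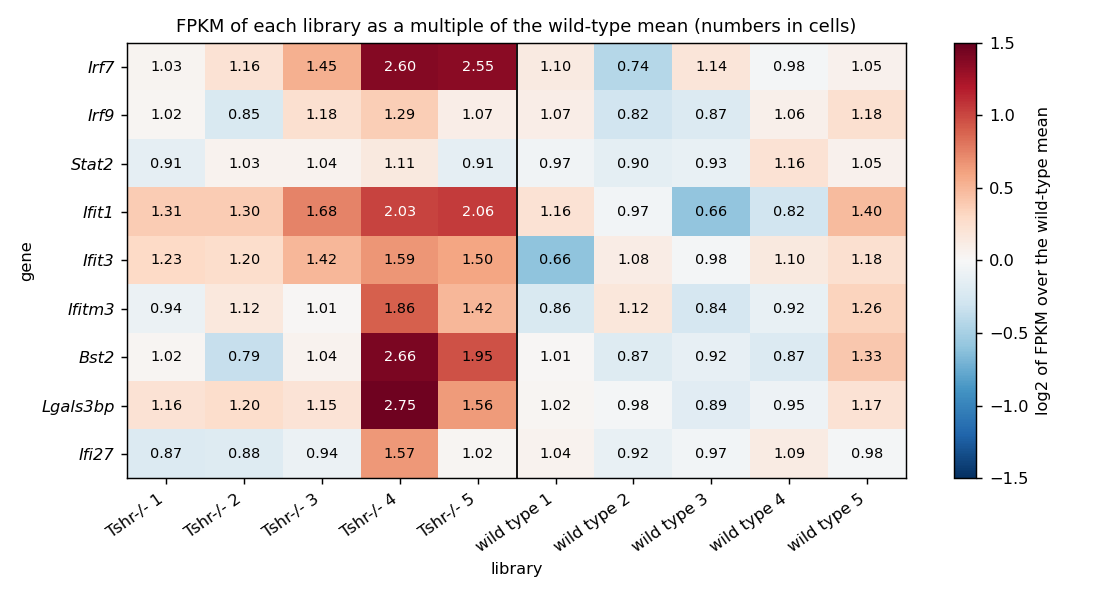
FPKM of each library as a multiple of the wild-type mean of the gene (numbers in the cells; color, log2 of that multiple), genes down the page and libraries across, Tshr-/- at the left. Apart from Stat2, which is highest in wild-type library 4, the highest multiple of each gene is in Tshr-/- library 4 or 5. The largest in library 4 is 2.75, for Lgals3bp. In library 5 it is 2.55, for Irf7, which has 2.60 in library 4.

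The high values of several genes fell in the same libraries. Tshr-/- library 4 was the highest of all 10 for 7 of the 9 genes and among the top 2 for all 9. Tshr-/- library 5 was among the top 2 for 6 genes and above all wild-type libraries for 6, namely Ifit1, Ifit3, Irf7, Lgals3bp, Ifitm3 and Bst2. Tshr-/- libraries 1, 2 and 3 lay above all wild-type libraries for 1, 3 and 3 genes. Relative to the wild-type mean, library 4 had 2.75 times the level of Lgals3bp, 2.66 of Bst2 and 2.60 of Irf7, but 1.11 of Stat2. In library 5 the ratios were 2.55 for Irf7, 2.06 for Ifit1 and 1.95 for Bst2, with 1.02 for Ifi27 and 0.911 for Stat2. Among wild-type libraries, library 5 was above the wild-type mean for 8 of the 9 genes and library 3 for 1.

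Markers of other cells and of neighbouring tissue moved with some of these values, and their part in the results was not tested beyond the fits given here. The 14 choroid plexus markers summed to 7.15 to 2287 FPKM in Tshr-/- and to 5.45 to 92.0 FPKM in wild type, with Tshr-/- library 4 at the top and Tshr-/- library 5 at 59.9 FPKM, inside the wild-type range. The 13 markers of meninges and fibroblasts summed to 20.8 to 59.0 FPKM in Tshr-/- and 14.8 to 29.6 FPKM in wild type. Here too Tshr-/- library 4 was highest, while Tshr-/- library 5, with 20.8 FPKM, was within the wild-type range. Col1a2, a fibroblast collagen, had 1.20 ± 0.470 FPKM in Tshr-/- and 0.662 ± 0.315 FPKM in wild type (SD, n = 5 each). Every marker of both lists had reads, though Kcne2 and Kcnj13 of the choroid plexus were at 0 in 1 library each and Slc22a2 of the meninges in 2. Of 11 choroid plexus markers tested, 10 were higher in Tshr-/- and 0 had an unadjusted limma p below 0.05, with a median log2 difference of 1.19. Without Tshr-/- library 4 only 3 passed the filter, 1 was higher and the median turned to -0.36. Of 12 meninges markers tested, 11 were higher, beside 46.7% of all genes tested, with a median of 0.77. An unadjusted limma p below 0.05 was reached by 5 of these markers, all higher in Tshr-/-, beside 4.65% of all genes higher at this level. Without Tshr-/- library 4, 11 of 12 were still higher, 1 had such a p and the median was 0.51. The 10 ependyma markers summed to 31.4, 50.8, 24.7, 51.6 and 35.5 FPKM in Tshr-/- libraries 1 to 5 and to 23.3 to 32.8 FPKM in wild type, so that libraries 2, 4 and 5 lay above all of wild type. Of these, 8 of 8 tested were higher in Tshr-/-, 3 with an unadjusted limma p below 0.05, and without Tshr-/- library 4 it was 8 of 8 and 1.

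Markers of immune cells and of endothelium were summed in the same way. The 9 border macrophage markers summed to 3.17 to 7.08 FPKM in Tshr-/- and 2.65 to 5.10 FPKM in wild type, with Tshr-/- library 4 at 6.11 FPKM, above all of wild type, and library 5 the lowest of Tshr-/-, and 3 of 3 tested were higher in Tshr-/-. Mrc1, the mannose receptor of these cells, had 0.770, 0.757, 0.495, 0.756 and 0.108 FPKM in Tshr-/- libraries 1 to 5, against 0.102, 0.149, 0.0889, 0.133 and 0.391 FPKM in wild-type libraries 1 to 5. The 10 microglia markers summed to 86.4 to 95.7 FPKM in Tshr-/- and 85.6 to 96.8 FPKM in wild type, with 2 of 10 higher in Tshr-/-. P2ry12, a microglial receptor, had 10.3 ± 1.08 FPKM in Tshr-/- and 9.56 ± 1.03 FPKM in wild type (SD, n = 5 each). P2ry12 was among the 2 markers that were higher, and the median log2 difference of the microglia list was -0.069. The 14 blood leukocyte markers summed to 2.54 to 7.90 FPKM in Tshr-/- and 2.14 to 4.05 FPKM in wild type, with Tshr-/- libraries 4 and 5 the lowest of Tshr-/-, and 2 of 2 tested were higher in Tshr-/-. The T cell marker Cd3e was near 0, at no more than 0.0437 FPKM in any library, while S100a8 and S100a9 of this list reached 3.54 and 3.59 FPKM. The 10 endothelial markers summed to 86.3 to 112 FPKM in Tshr-/- and 92.4 to 119 FPKM in wild type, and 7 of 10 were higher in Tshr-/-. The tight junction gene Cldn5, with an unadjusted limma p below 0.05, had 32.6 ± 10.3 FPKM in Tshr-/- and 46.8 ± 4.88 FPKM in wild type (SD, n = 5 each). Cldn5 was among the 3 endothelial markers that were lower, and the median log2 difference of that list was 0.018.

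**Figure D3:**
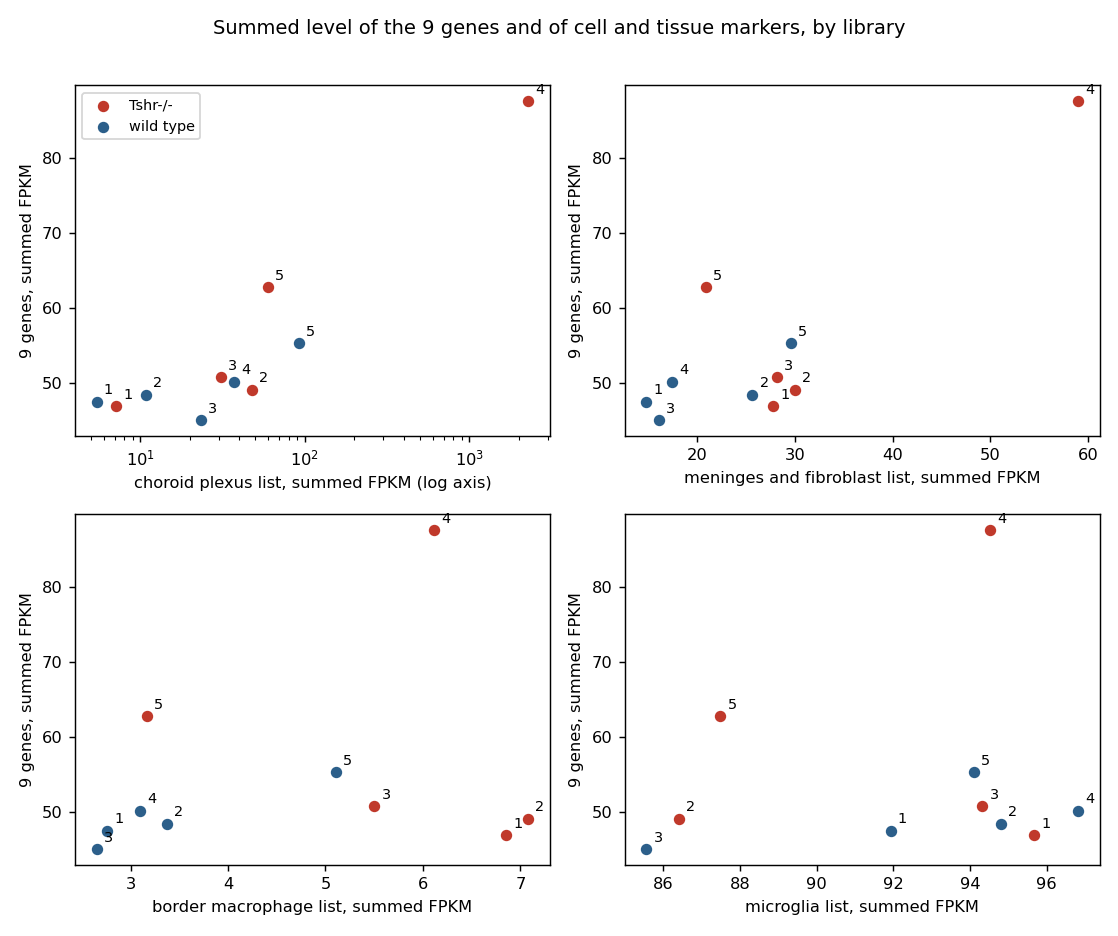
Summed FPKM of the 9 genes (vertical axis) against the summed FPKM of 4 marker lists (horizontal axes, that of the choroid plexus logarithmic), 1 point per library with its number. Tshr-/- library 4 lies at the top of the choroid plexus and meninges lists, while Tshr-/- library 5, second in the 9 genes with 62.8 FPKM, lies within the wild-type range of these 4 lists, though above that of the ependyma list, which is not drawn. Most of the sum of the 9 genes is Ifi27 and Ifitm3, at 19.7 and 20.6 FPKM in Tshr-/- library 5, so it shows little of the low genes.

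With the mean level of a marker list as a covariate, the differences changed by unequal amounts. With the choroid plexus list the median log2 difference of the 9 genes was 0.15 and 7 were positive. Ifit1, Ifit3 and Lgals3bp kept an unadjusted limma p below 0.05, at 0.0295, 0.0295 and 0.0213. With the meninges list the median was 0.11, 6 were positive, and no gene had an unadjusted limma p below 0.05 (0.103 to 0.878). Ifit3 then had a log2 difference of 0.29 ± 0.17, Ifit1 of 0.46 ± 0.26, Irf7 of 0.59 ± 0.34 and Ifitm3 of -0.026 ± 0.17 (SE). The error thus grew for these genes except Ifitm3. The 12 thalamus markers summed to 40.8 to 260 FPKM in Tshr-/- and 23.9 to 116 FPKM in wild type, highest in Tshr-/- libraries 1 and 2. With that list the median was 0.48 and 4 genes had an unadjusted limma p below 0.05. They were the 4 genes with such a p in the fit without a covariate. Shares and medians over all genes tested were not taken in the covariate fits. The counts and medians of the 9 genes there thus cannot be set beside those of all genes.

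**Figure D4:**
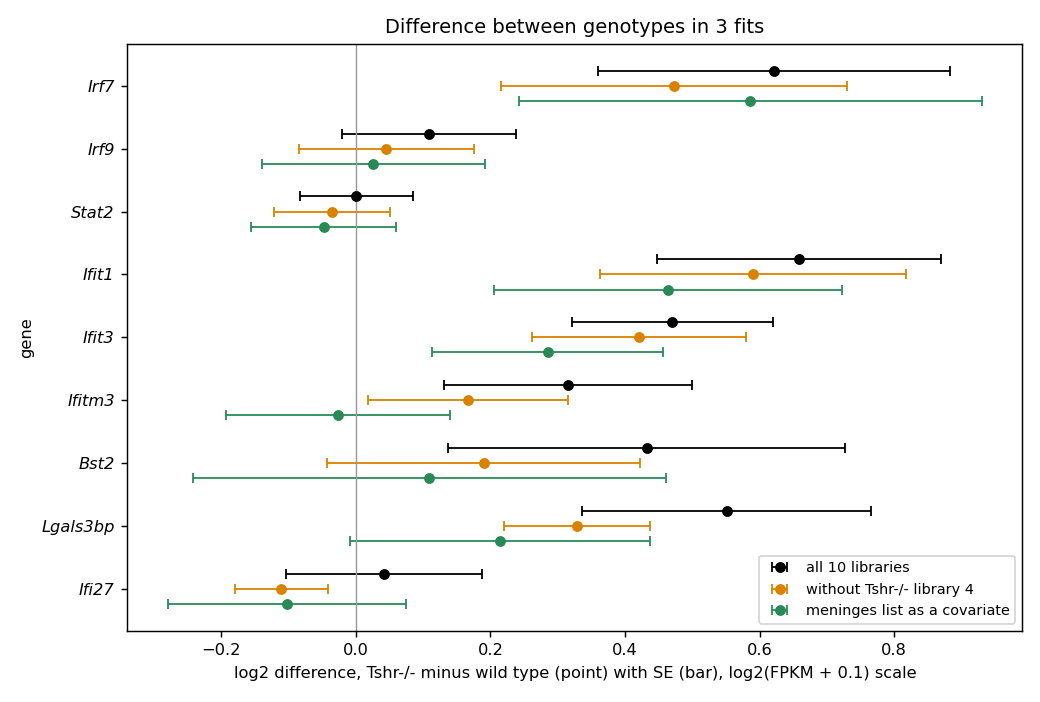
Log2 difference between Tshr-/- and wild type for each gene (points, with SE as bars) in the fit of all 10 libraries, the fit without Tshr-/- library 4, and the fit with the meninges list as a covariate. Irf7, Ifit1 and Ifit3 lie to the right of 0 by more than 1 SE in all 3, and Stat2 lies within 1 SE of 0 in all 3.

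Upstream of these genes, the pathway was measured from ligands to inhibitors with lists drawn up for that purpose. Of 11 interferon ligands, 10 had no read in any library, among them Ifnb1 and Ifng. At 3 reads per library, that allows up to 0.174 FPKM of Ifnb1 and 0.101 FPKM of Ifng, and such limits cover counting error only. Ifnk, a keratinocyte interferon, had 0 reads in Tshr-/- and 2 in wild type. The Ifna genes are near copies of each other, so their counts are uncertain.

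Receptor chains and signal transducers were expressed in both genotypes, and none was called. Ifnar1 had 6.99 ± 0.365 FPKM in Tshr-/- and 6.76 ± 0.0846 FPKM in wild type, and Ifnar2 had 3.99 ± 0.739 FPKM in Tshr-/- and 4.04 ± 0.390 FPKM in wild type (SD, n = 5 each). Of 5 receptor chains tested, 0 were called and 1, Ifngr2 of the interferon gamma receptor, had an unadjusted p below 0.05. Ifngr2 had 17.3 ± 1.54 FPKM in Tshr-/- and 19.6 ± 1.13 FPKM in wild type, with a log2 difference of -0.18 ± 0.067 (SE) and a limma adjusted p of 0.307. Among the 10 kinases, STATs and IRFs outside the 9 genes, 4 were higher, 6 lower, 0 were called and 0 had an unadjusted limma p below 0.05. The kinases Jak1 and Tyk2 had log2 differences of 0.033 ± 0.043 and -0.046 ± 0.13 (SE).

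Of 9 tested sensors and adaptors of nucleic acid detection and 6 tested inhibitors of the pathway, 0 were called. Of all genes tested, 0.0129% were called and 46.7% had a difference above 0, or 46.4% without Tshr-/- library 4. Among the sensors and adaptors 6 were higher and 3 lower, with a median log2 difference of 0.039, and without Tshr-/- library 4 the count was 4 of 9 and the median -0.014. Of this list, the smallest p was that of Tmem173, the adaptor STING, with a log2 difference of -0.15 ± 0.079 (SE) and a limma adjusted p of 0.443. The RNA sensor Ddx58 had 0.777 ± 0.170 FPKM in Tshr-/- and 0.627 ± 0.0978 FPKM in wild type, with a log2 difference of 0.26 ± 0.17 (SE), a limma adjusted p of 0.535, and a difference of 0.16 without Tshr-/- library 4. Among the inhibitors 5 were higher and 1 lower, and Socs3 alone of both lists had an unadjusted limma p below 0.05. Socs3, which blocks JAK kinases, had 1.08, 0.576, 0.723, 0.814 and 1.84 FPKM in Tshr-/- libraries 1 to 5, against 0.497, 0.525, 0.528, 0.725 and 0.583 FPKM in wild-type libraries 1 to 5. Its log2 difference was 0.63 ± 0.26 (SE, limma adjusted p = 0.348), and 0.40 without Tshr-/- library 5, which held the highest value. Usp18, an interferon-induced inhibitor of the pathway, had 0.417 ± 0.129 FPKM in Tshr-/- and 0.302 ± 0.0855 FPKM in wild type (exact permutation p = 0.135) and was below the filter.

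Of 45 other interferon-stimulated genes listed, 25 passed the filter. Differences were above 0 for 23 and below 0 for 2, beside 46.7% of all genes tested above 0, with a median log2 difference of 0.17 against -0.010 over all genes tested. With limma 0 had an adjusted p below 0.05 and 0 an unadjusted p below 0.05. Without Tshr-/- library 4, 19 of 24 were higher, beside 46.4% of all genes, and the median was 0.089. Ifi27l2a, a relative of Ifi27, had 0.736, 1.32, 0.738, 2.82 and 2.18 FPKM in Tshr-/- libraries 1 to 5, against 0.846, 0.964, 0.188, 0.696 and 0.867 FPKM in wild-type libraries 1 to 5. Its high libraries were thus Tshr-/- 4 and 5, as for Irf7 and Bst2, and they rest on 35 and 28 reads. Isg15, a ubiquitin-like modifier, had 1.98 ± 0.374 FPKM in Tshr-/- and 1.68 ± 0.389 FPKM in wild type (limma adjusted p = 0.579), with a log2 difference of 0.24 that was 0.10 without wild-type library 3. Oasl2, of the oligoadenylate synthetase family, had 0.667 ± 0.150 FPKM in Tshr-/- and 0.490 ± 0.0936 FPKM in wild type (limma adjusted p = 0.443). Apobec3, a cytidine deaminase that restricts retroviruses, had 0.605 ± 0.122 FPKM in Tshr-/- and 0.436 ± 0.0380 FPKM in wild type (limma adjusted p = 0.389). The wild-type means of Oasl2 and Apobec3 lay below the filter of 0.5 FPKM. Both thus entered the count of genes above 0 through Tshr-/-, where they were high. Slfn2 was the lower gene with the smallest p, at 0.725 ± 0.164 FPKM in Tshr-/- and 0.995 ± 0.273 FPKM in wild type (limma adjusted p = 0.432).

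Targets mainly of interferon gamma were counted in the same way. All 11 tested of 19 listed were higher, beside 46.7% of all genes tested, with a median log2 difference of 0.23. Of the 11, 0 were called, beside 0.0129% of all genes tested. An unadjusted limma p below 0.05 was reached by 2, the guanylate-binding proteins Gbp3 and Gbp2, beside 4.65% of all genes higher at this level. Gbp3 had 1.33, 1.58, 2.05, 1.94 and 2.05 FPKM in Tshr-/- libraries 1 to 5, against 0.830, 1.03, 0.881, 1.33 and 1.46 FPKM in wild-type libraries 1 to 5. Tshr-/- library 1 lay below wild-type libraries 4 and 5, and the other Tshr-/- libraries lay above all of wild type. Its log2 difference of 0.66 ± 0.18 (SE) had a limma adjusted p of 0.194. Gbp2 had 1.12 ± 0.317 FPKM in Tshr-/- and 0.792 ± 0.152 FPKM in wild type, with a log2 difference of 0.44 ± 0.18 (SE) and a limma adjusted p of 0.351. With Tshr-/- library 4 left out, 9 of the 11 were higher, the median was 0.15 and 1 had an unadjusted limma p below 0.05. Of all genes in that fit, 46.4% were higher, and 5.13% were higher with such a p.

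**Figure D5:**
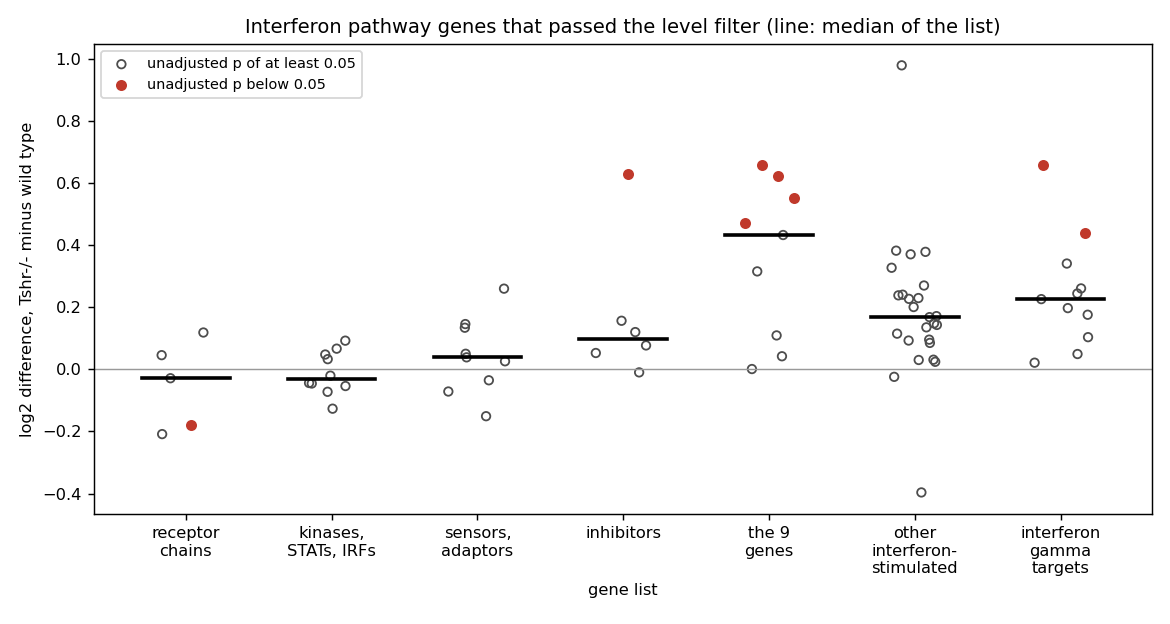
Log2 difference between Tshr-/- and wild type for each pathway gene that passed the filter (points, filled where the unadjusted limma p was below 0.05), by list, with the median of each list as a line. Medians run from -0.03 for receptor chains and for kinases, STATs and IRFs to 0.43 for the 9 genes.

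Genes with a library pattern most like that of the 9 genes were sought among all others tested, by Pearson's r over the 10 libraries with the mean of the 9 z-scored log2 levels. The libraries share depth, tissue makeup and genotype, so the coefficients are a description. The first 5 were Slc19a1, a folate carrier (r = 0.962), Slc22a8, an organic anion transporter of brain barriers (0.945), Tap1, which carries peptides to MHC class I (0.938), Dock6, an exchange factor for small GTPases (0.929) and Serpinb8, a protease inhibitor (0.927). These values were between 0.858 and 0.899 over the 9 libraries without Tshr-/- library 4. Tap1 is one of the listed interferon gamma targets and had 0.641, 0.614, 0.895, 1.17 and 0.923 FPKM in Tshr-/- libraries 1 to 5, against 0.590, 0.576, 0.653, 0.633 and 0.719 FPKM in wild-type libraries 1 to 5. Its Tshr-/- libraries 3, 4 and 5 lay above all of wild type. For single genes, the pattern nearest to Bst2 was again Serpinb8 (0.969), that nearest to Lgals3bp was the tight junction gene Cldn1 (0.962), and that nearest to Irf7 was the lysosomal mannosidase gene Man2b1 (0.958). The nearest to Ifit1, Ifit3, Ifitm3, Stat2, Irf9 and Ifi27 were Scoc (0.955), Pfkfb2 (0.950), Csrp2 (0.940), Focad (0.936), Utp15 (0.893) and Prelp (0.949). For Ifi27 and Prelp the coefficient was 0.673 without Tshr-/- library 4.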

How the data were processed

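Hippocampal RNA was sequenced in 5 Tshr-/- and 5 wild-type libraries. The kit named in the labels' protocols keeps no strand information. The submitters' processing notes name HISAT2 2.0.5, featureCounts 1.5.0-p3 and mm10 but no annotation release. The authors deposited FPKM values. Multiplied by gene length, 100% of the values above 0 were whole multiples of a unit found for each library (tolerance 0.01), and the multiples served as read numbers. Median-ratio factors of the deposited FPKM were 1 in every library, so the values were already on such a scale. Genes with a mean of at least 0.5 FPKM were tested on log2(FPKM + 0.1) with limma 3.58.1 (R 4.3.3, statmod 1.5.0), with empirical Bayes and a variance trend, adjusted by Benjamini-Hochberg over all 15471 genes at 0.05. This scale understates the change of low genes. Single values were compared by 2-sided exact permutation over 252 splits. The 9 genes and the lists were chosen with earlier results of these data known. Named beside them are pathway genes fixed by name, of which 1 is not reported here, up to 4 genes of each list with the smallest p, 5 defining markers, near copies, and the genes of most similar pattern. Alternatives were pseudocounts, filters, scalings, variance models, covariates, a replicate block, leave-one-out fits and limma voom on the rebuilt reads. The steps were tested on simulated data. No 2 libraries shared more than 0.181% of their values. Irf7 overlaps Phrf1 on the opposite strand by 45 bases and Irf9 overlaps Rnf31 by 123, so a few reads cannot be told apart.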

Additional observations from a re-analysis of the deposited data

Results flagged for a closer look

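Of 116 groups of 5 libraries examined, 8 held a library far from the other 4, where chance flags about 1 in 20. Of these, 7 were Tshr-/- library 4. Lgals3bp was 9.56 FPKM there, with the next Tshr-/- library at 5.43, and Ifi27 was 30.3 FPKM, with the next at 19.7. Ifitm2, a neighbour and relative of Ifitm3, was 13.3 FPKM, with the next at 8.82. Gbp2 was 1.68 FPKM there, with the next at 1.08. Ttr reached 2189 FPKM, the choroid plexus markers summed to 2287 FPKM and the meninges markers to 59.0 FPKM. Ttr is most of the choroid plexus sum, so the flags of Ttr and of that sum are not separate. In wild type, Mrc1 was 0.391 FPKM in library 5, with the next at 0.149.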

How the results depend on the processing

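None of the 9 genes was called in any of the 25 alternatives that held it, 24 for Ifit1 and Irf7, and their lowest limma adjusted p was 0.191. In 18 of the 25 the log2 differences could move, and 149 of 162 values kept their sign. The other 7 change the errors or the genes tested, except median-ratio scaling, whose factors were 1 for every library. Stat2 turned negative with quantile normalization (-0.017) and the choroid plexus (-0.050) and meninges (-0.048) covariates, and ran from -0.036 to 0.055 with 1 library left out. Ifi27 was -0.12 and -0.10 with these 2 covariates, and -0.11 to 0.10 with 1 library left out. Ifitm3 was -0.026 with the meninges covariate. The count with an unadjusted p below 0.05, 4 of 9, was 0 with that covariate, 2 of 7 with a filter at 1 FPKM, which removed Ifit1 and Irf7, and 2 to 5 with 1 library left out. Among the alternatives, the share of all genes at this level was counted only without Tshr-/- library 4. The count of all genes called, 2, was 14 with a pseudocount of 0.01, 4 with no filter, 13 with a filter at 1 FPKM, 4 with quantile normalization, 1 with no variance trend, 13 with robust empirical Bayes, 17 among protein-coding genes, 6 with limma voom, and 4, 0 and 6 with the choroid plexus, meninges and thalamus covariates. It was 0 to 9 with 1 library left out. The causes were not tested. The Tshr difference in mean FPKM, -0.0285, was -0.0345 to -0.0230 with 1 library left out. Same-numbered libraries deviated together in some pairs only (correlations of deviations from -0.0651 to 0.296, the library's own number best for 2 of 5). With 5 numbers this check cannot decide whether the libraries were paired, and the main fit did not pair them. With the replicate number as a block, which cannot move these differences, 3 genes were called, 0 of the 9 among them, and 4 of the 9 had an unadjusted p below 0.05. Reads of 21 to 122 per library limit the precision of Ifit1 and Irf7.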
